A study of Homo sapiens with 2 samples.

Results

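The expressed protein-coding genes of human chromosome 13 were described across 1 library of SUM-159 cells labelled PD-L1L2-SE deficient and 1 library labelled sgVector. A gene was a member if the deposited table placed it on chromosome 13, GENCODE typed it as protein-coding, and its mean over both libraries was at least 1 RPKM (reads on a gene per kilobase of its length and per 1000000 gene reads). Of the 60880 rows of the table, 10576 protein-coding genes passed that floor, 180 of them on chromosome 13. The rule leaves out 16 of these by name or gene family, so 164 members remain. The members were chosen by their RPKM values, and the chromosome was selected on its log2 ratios between the libraries, which were already known to be high. Those ratios are given here as a description and no test is made of them.

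SUM-159 is a human breast cancer cell line of the triple-negative kind, grown from a tumour without the hormone receptors or HER2 amplification that guide treatment. Both groups were this cell line, and RNA was given as polyA RNA. The labels name the altered element PD-L1L2-SE and the comparator sgVector, and the deficient sample is titled SgPD-L1L2-SE. Beyond the prefix Sg or sg, they do not say how the deficiency was made. Nor do they say whether either line is 1 clone or how many cultures were pooled. There was 1 library per group, with 16381546 gene reads for deficient cells and 16206675 for sgVector cells. No difference therefore has a replicate check, and intervals cover counting error only, on PCR reads that are not independent molecules.

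The genes that give the element its name were low in the deficient library: CD274, which encodes PD-L1, had 0.698 RPKM in deficient cells and 7.16 RPKM in sgVector cells. PDCD1LG2, which encodes PD-L2, had 1.19 RPKM in deficient cells and 5.32 RPKM in sgVector cells. The cell type labels were set against marker genes. Of the mesenchymal genes, VIM had 390 RPKM in deficient cells and 746 RPKM in sgVector cells, FN1 had 297 and 229 RPKM, and CDH2 had 30.6 and 31.7 RPKM. The luminal keratin gene KRT8 had 15.5 RPKM in deficient cells and 18.5 RPKM in sgVector cells. The epithelial genes KRT19, EPCAM and CDH1 had at most 1 read in either library, and the progesterone receptor gene PGR had 0 reads in both. ERBB2, which encodes HER2, had 1690 reads in deficient cells and 1175 in sgVector cells. In bulk libraries such as these, fewer cells of a kind and less RNA per cell cannot be told apart.

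Chromosome 13 is acrocentric: its short arm carries mainly ribosomal RNA gene repeats, and its protein-coding genes lie on the long arm. The long arm is gene-poor for its size and holds wide stretches with few genes. It carries the tumour suppressor genes RB1 and BRCA2, and otherwise genes of many unrelated functions that share little beyond their position.

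The members were, as a group, higher in the deficient library. They took 150453 reads in deficient cells and 103350 in sgVector cells, which is 0.918% and 0.638% of all reads on genes, a ratio of 1.44 (exact 95% interval 1.43 to 1.45). Per gene, the log2 ratio was computed as deficient over sgVector RPKM after adding 0.1 RPKM to each. Its median over the 164 members was 0.46, a 1.38-fold difference, with quartiles of 0.28 and 0.65. Over all 10576 protein-coding genes the median was -0.03, with quartiles of -0.28 and 0.22.

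The ratio was above 0 for 156 of the 164 members, where 46.4% of all protein-coding genes past the floor were above 0. Counting intervals, exact 95% Clopper-Pearson intervals on the ratio of read shares, lay wholly above no change for 131 members (30% of all protein-coding genes) and wholly below it for 5 (35.4%). The other 28 spanned no change. Because the members were chosen for this contrast, nothing is read from these shares. At least 2-fold higher were 8 members (2.1% of all protein-coding genes), and 0 members were at least 2-fold lower (2.07%). At 1.5-fold the counts were 51 higher (6.92%) and 1 lower (8.67%).

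Most members differed moderately. The log2 ratios of 148 members lay between 0 and 1, and those of 112 lay between 0.2 and 0.8. Their SD was 0.37, or 0.33 without LCP1, the highest member, against 0.50 over genes of the other chromosomes pooled. Within single nuclear chromosomes the SD was as low as 0.38 on chromosome 4 and 0.39 on chromosomes 14 and 22, so the member spread was near that of those chromosomes. Over the 13 genes of the mitochondrial chromosome it was 0.30. Among members with at least 500 reads over both libraries, the SD was 0.36 (n = 125), and among such genes of other chromosomes it was 0.43 (n = 8211). The counting interval of 83 of the 164 members (50.6%) held the ratio at the member median, while 35.3% of the genes elsewhere held the ratio at their pooled median. Against their own chromosome's median the share was 43.9% on chromosome 16 and 43.1% on chromosome 15. Members had a median of 947.5 reads over both libraries and genes elsewhere 1285.5, and fewer reads give wider intervals. The 16 genes that the rule leaves out had a median of 0.47, and 16 of 16 were above 0.

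The floor fell between genes of unlike ratio. Just inside it, UTP14C, a nucleolar protein of ribosomal RNA processing, had 1.32 RPKM in deficient cells and 0.725 RPKM in sgVector cells. Of its exon bases, 74.2% also belong to another gene. GRTP1, a TBC-domain protein also just inside the floor, had 0.942 RPKM in deficient cells and 1.14 RPKM in sgVector cells. Just outside it, LPAR6, a lysophosphatidic acid receptor, had 1.10 RPKM in deficient cells and 0.894 RPKM in sgVector cells, and FAM124A had 1.71 and 0.249 RPKM.

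Along the chromosome the difference ran from the first member to the last. The first, MPHOSPH8, a chromodomain protein of the HUSH silencing complex, starts at 20.2 Mb (hg19, the build of the deposited coordinates). It had 1058 reads in deficient cells and 572 in sgVector cells, a log2 ratio of 0.86. The last, CHAMP1, a zinc finger protein that acts at kinetochores, starts at 115 Mb and had 526 and 319 reads, a log2 ratio of 0.69. In windows of 10 Mb with at least 10 members, the median log2 ratio lay between 0.36, at 110 to 120 Mb, and 0.54, at 100 to 110 Mb. Every member was above 0 at 40 to 50 Mb (31 genes), 50 to 60 Mb (15 genes), 90 to 100 Mb and 100 to 110 Mb (12 genes each). Some of these were close to 0. After a correction for GC content and length, PHF11 (-0.09) and INTS6 (-0.18), at 50 to 60 Mb, and BIVM (-0.07), at 100 to 110 Mb, were below it.

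Medians over 15 neighbouring members were above 0 in all 150 such runs. The lowest was 0.31, between KBTBD6 and COG3 at 41.7 to 46.0 Mb, and the highest was 0.61, between LMO7 and HS6ST3 at 76.2 to 96.7 Mb. The run with the lowest median ended short of LCP1 at 46.7 Mb, the member with the highest ratio. Long gaps with no member lay between NDFIP2 and TGDS (15.2 Mb) and between TDRD3 and MZT1 (12.3 Mb), and members on both sides of each gap were above 0. The 8 members below 0 were spread out: 2 lay at 20 to 30 Mb, 2 at 30 to 40 Mb, 2 at 70 to 80 Mb and 2 at 110 to 120 Mb.

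**Figure D1:**
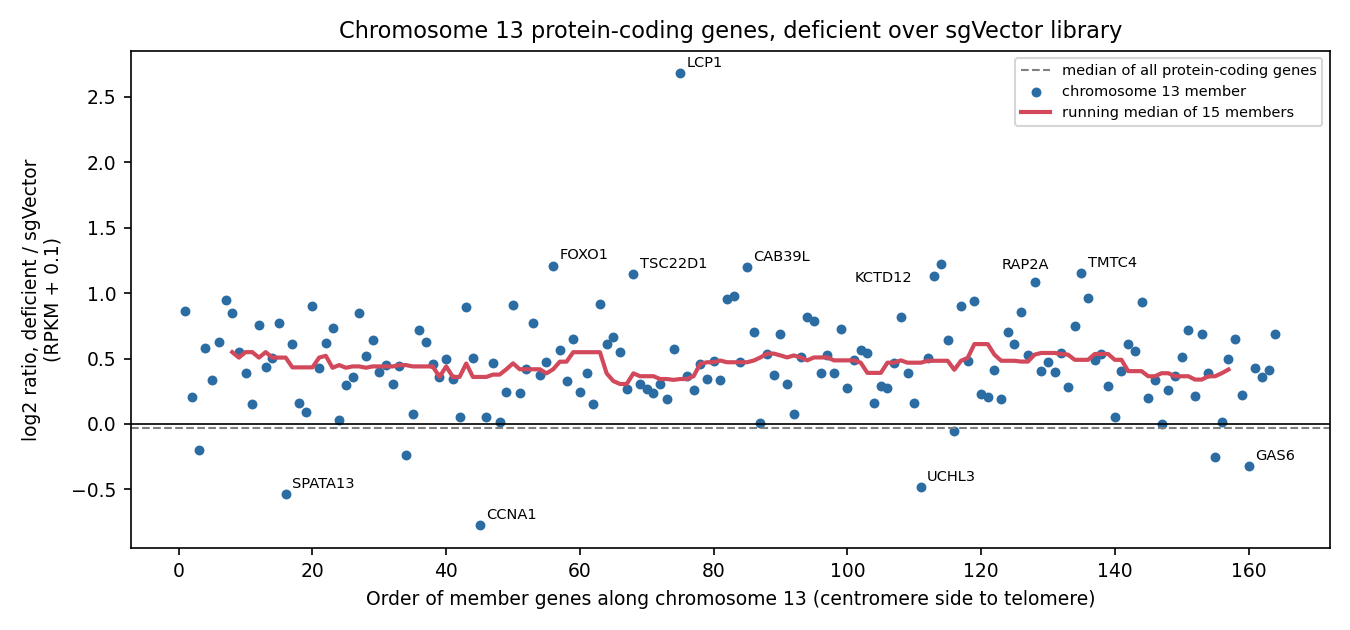
Log2 ratio of deficient over sgVector RPKM for each of the 164 members (points) in order along chromosome 13, with the running median of 15 members (line) and the median of all protein-coding genes, -0.03 (dashes). The running median stays between 0.31 and 0.61 over its 150 runs, and it has no value for the outermost members at either end. LCP1 stands at 2.68 and CCNA1 at -0.77.

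Set beside the other chromosomes, the member median of 0.46 ranked first of 24, where the mitochondrial chromosome counts as 1. Chromosome 15 followed at 0.20 (339 genes) and chromosome 4 at 0.15 (396 genes), and the lowest medians were -0.29 on chromosome 12 and -0.31 on chromosome 22. On chromosome 15, 254 of 339 genes were above 0, against 156 of 164 members here. With 1 library per group these differences between chromosomes were not tested.

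**Figure D2:**
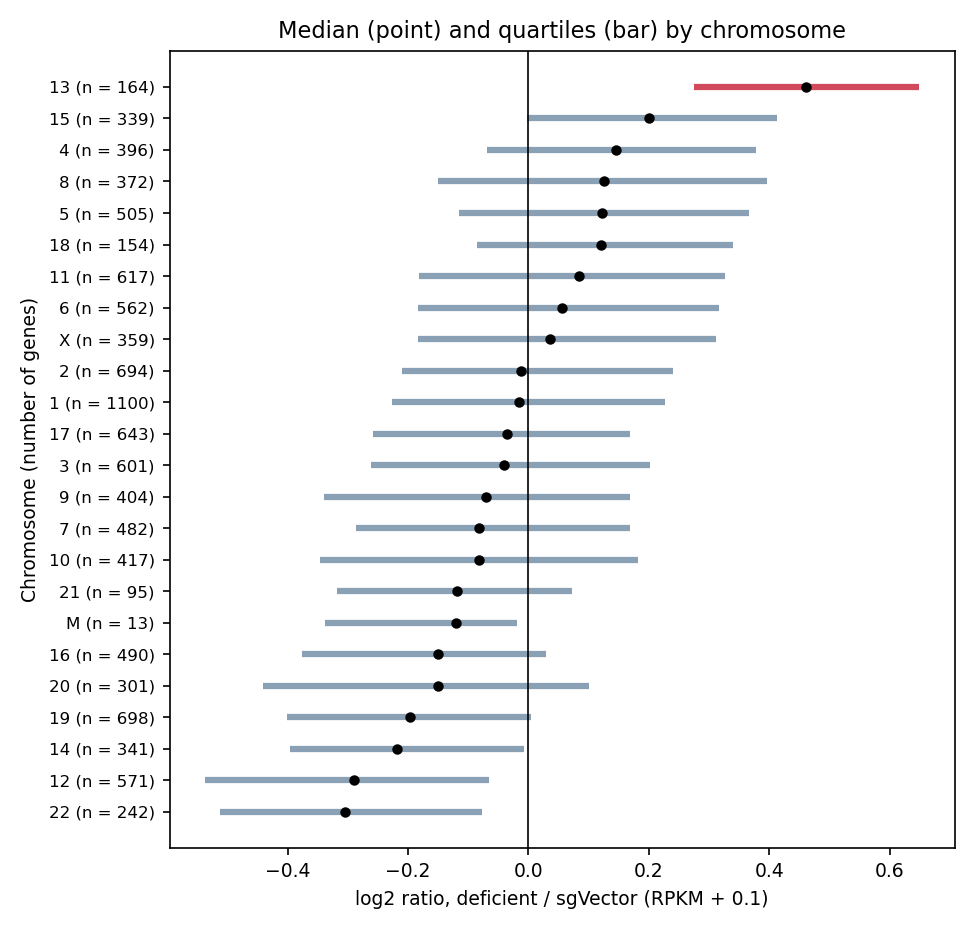
Median log2 ratio of deficient over sgVector RPKM for the protein-coding genes past the floor on each chromosome, with the quartiles as bars. For chromosome 13 only the 164 members are included. Chromosome 13 has the highest median at 0.46, followed by chromosome 15 at 0.20, and chromosome 22 has the lowest at -0.31.

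Base composition moved with the ratio over the other chromosomes: genes there with more G and C had lower ratios (Spearman rho of -0.31 over 10396 genes, which share both libraries). Members had a median transcript GC content of 41.5%, against 48.1% elsewhere. Within 5 classes of GC content, the member median was above that of the other genes each time. It was 0.49 for 73 members in the most AT-rich class, where 2080 other genes had 0.13, and 0.22 for 5 members in the most GC-rich class, where 2079 other genes had -0.20. After a correction for GC content and length the member median was 0.34 and chromosome 15 was next at 0.13. Within the members rho was -0.09 with GC content, 0.24 with exon length and -0.05 with mean RPKM.

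LCP1, or L-plastin, an actin-bundling protein best known from blood cells and found in many carcinoma lines, stood far from the rest. It lies at chr13:46700055-46786006 on the minus strand (hg19). It had 79.8 RPKM from 6620 reads in deficient cells and 12.4 RPKM from 1015 reads in sgVector cells. That is 6.45-fold higher (6.04 to 6.90), a log2 ratio of 2.68, and the 21st highest of the 10576 protein-coding genes. Its neighbours stood near the member median: ZC3H13, of the m6A RNA methylation machinery, was at 0.58 and LRCH1, a leucine-rich repeat protein, at 0.36. Of the leukocyte markers, PTPRC, the pan-leukocyte antigen CD45, had 0 reads in deficient cells and 4 in sgVector cells, CD3E had 0 in both, LYZ had 1 and 0, and CD14 had 476 and 337.

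The promoter window of LCP1 is shown because it is the member with the highest ratio, a choice made after the values were seen. The window, from RefSeq on GRCh38.p14, covers chr13:46182128-46182427 on the minus strand, from 250 bases before the start to 50 after it, and is 42.7% GC. Capitals mark matches to the searched motifs, here TATAAA and GGGCGG.
LCP1: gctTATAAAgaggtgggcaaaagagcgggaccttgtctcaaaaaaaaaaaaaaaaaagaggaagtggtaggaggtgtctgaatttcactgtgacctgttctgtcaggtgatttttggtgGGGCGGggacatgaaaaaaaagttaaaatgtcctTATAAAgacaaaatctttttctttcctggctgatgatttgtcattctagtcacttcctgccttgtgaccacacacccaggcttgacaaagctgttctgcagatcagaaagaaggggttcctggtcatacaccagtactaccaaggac

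A further 7 members were at least 2-fold higher, of which 6 are described here. TSC22D1, a leucine zipper regulator induced by TGF-beta, had by far the most reads of them, with 60.9 RPKM from 8561 reads in deficient cells and 27.5 RPKM from 3822 reads in sgVector cells (2.22-fold, 2.13 to 2.30). FOXO1, a forkhead transcription factor held in check by insulin and AKT signalling, had 6.80 RPKM from 694 reads in deficient cells and 2.88 RPKM from 291 reads in sgVector cells (2.36-fold, 2.05 to 2.71). For TSC22D1 and FOXO1, as for LCP1, the whole counting interval lay past 2-fold.

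The other 4 described here had intervals that reached below 2-fold. CAB39L, a scaffold related to the LKB1 partner MO25, had 143 reads in deficient cells and 57 in sgVector cells (2.48-fold, 1.81 to 3.44). TMTC4, an endoplasmic reticulum protein with tetratricopeptide repeats, had 455 and 197 reads (2.28-fold, 1.93 to 2.71). KCTD12, an auxiliary subunit of GABA-B receptors, had 397 reads in deficient cells and 174 in sgVector cells (2.26-fold, 1.88 to 2.71). RAP2A, a Ras-related GTPase, had 524 and 239 reads (2.17-fold, 1.86 to 2.54). Next came FNDC3A, a fibronectin type III domain protein, at a log2 ratio of 0.98, and the sodium leak channel gene NALCN at 0.96. The 8 members lie in 4 windows of 10 Mb, with 4 of them at 40 to 50 Mb.

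**Figure D3:**
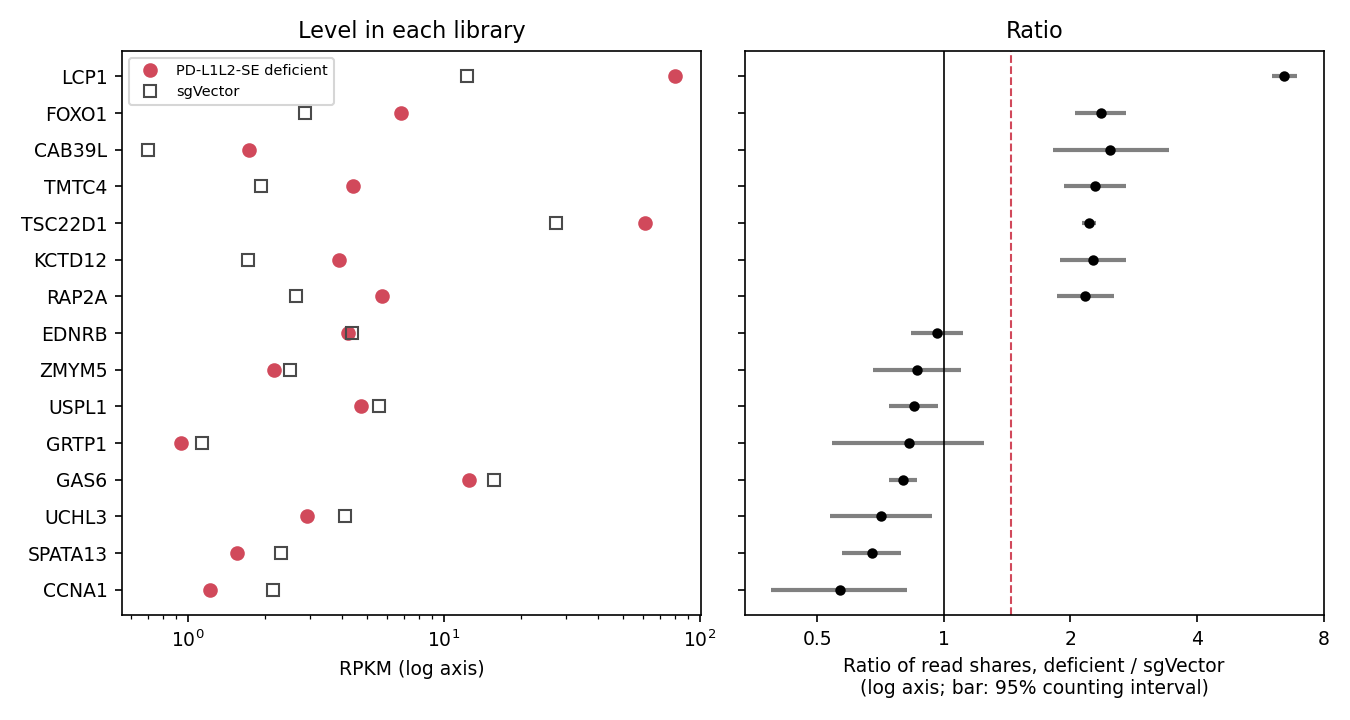
Left, RPKM on a log axis in deficient cells (circles) and sgVector cells (squares) for LCP1, 6 other members at least 2-fold higher and the 8 below 0. Right, the ratio of read shares with its 95% counting interval, with the pooled member ratio of 1.44 as a dashed line. LCP1 has the widest gap, at 79.8 RPKM in deficient cells and 12.4 RPKM in sgVector cells, and CCNA1 lies the other way at 1.22 and 2.16 RPKM.

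At the other end, 8 members were lower in deficient cells. CCNA1, cyclin A1, a cyclin known chiefly from the male germline, had 1.22 RPKM from 48 reads in deficient cells and 2.16 RPKM from 84 reads in sgVector cells, 1.77-fold lower (1.23 to 2.58). SPATA13, an exchange factor for Rac and Cdc42, had 255 and 374 reads (1.48-fold lower, 1.26 to 1.75). UCHL3, a ubiquitin and NEDD8 hydrolase, had 91 reads in deficient cells and 127 in sgVector cells (1.41-fold lower, 1.07 to 1.87). Of the exon bases of SPATA13 37.8%, and of those of UCHL3 37.2%, also belong to another gene, and the sources used here do not give whether counting used strand.

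GAS6, the secreted ligand of the TYRO3, AXL and MERTK receptors, was the lower member with the most reads. It had 1234 reads in deficient cells and 1529 in sgVector cells (1.25-fold lower, 1.16 to 1.35). USPL1, a SUMO isopeptidase, had 399 and 466 reads (1.18-fold lower, 1.03 to 1.35). For the other 3 the interval spanned no change: GRTP1 had 45 reads in deficient cells and 54 in sgVector cells, the zinc finger gene ZMYM5 had 132 and 151, and the endothelin receptor gene EDNRB had 387 and 397. EDNRB was at -0.05, and it was above 0, at 0.02, when libraries were scaled by TMM. The mitochondrial cysteinyl-tRNA synthetase CARS2, at 0.00, and the PHD finger gene PHF11, at 0.01, stood nearest to no change.

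The promoter window of CCNA1 is shown as that of the lowest member, again chosen after the values were seen. It covers chr13:36431705-36432004 on the plus strand (GRCh38.p14, RefSeq), is 72.7% GC, and holds GGGCGG in the reverse orientation, in capitals.
CCNA1: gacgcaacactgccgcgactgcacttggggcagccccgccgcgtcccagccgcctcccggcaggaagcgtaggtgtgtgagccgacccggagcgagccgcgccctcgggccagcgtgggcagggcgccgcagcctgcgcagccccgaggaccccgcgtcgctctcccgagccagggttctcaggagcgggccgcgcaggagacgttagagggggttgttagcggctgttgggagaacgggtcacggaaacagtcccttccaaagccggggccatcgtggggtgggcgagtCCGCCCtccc

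The members with the most reads were moderately higher, apart from LCP1 and TSC22D1. TPT1, the translationally controlled tumour protein, had 139 RPKM from 16557 reads in deficient cells and 113 RPKM from 13285 reads in sgVector cells, 1.23-fold (1.21 to 1.26). LAMP1, a lysosomal membrane glycoprotein, had 4089 and 3090 reads, a log2 ratio of 0.39. ARGLU1, a splicing and nuclear receptor cofactor, had 3371 reads in deficient cells and 2519 in sgVector cells, a log2 ratio of 0.40. Together with TSC22D1 and LCP1 these are the 5 members with the most reads. Without LCP1 the pooled ratio was 1.39 (1.38 to 1.40).

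Sorted by role, 133 members fell into at least 1 of 12 lists, with medians that lay between 0.23, for translation, and 0.56, for membrane pumps and channels. In 7 of the 12 lists every member past the floor was above 0, which became 5 lists without mitochondrial genes in the total and 3 after the correction for GC content and length. Of the 158 genes listed, 25 lay below the floor. The medians stayed above 0 under each scaling and after the correction for GC content and length.

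**Figure D4:**
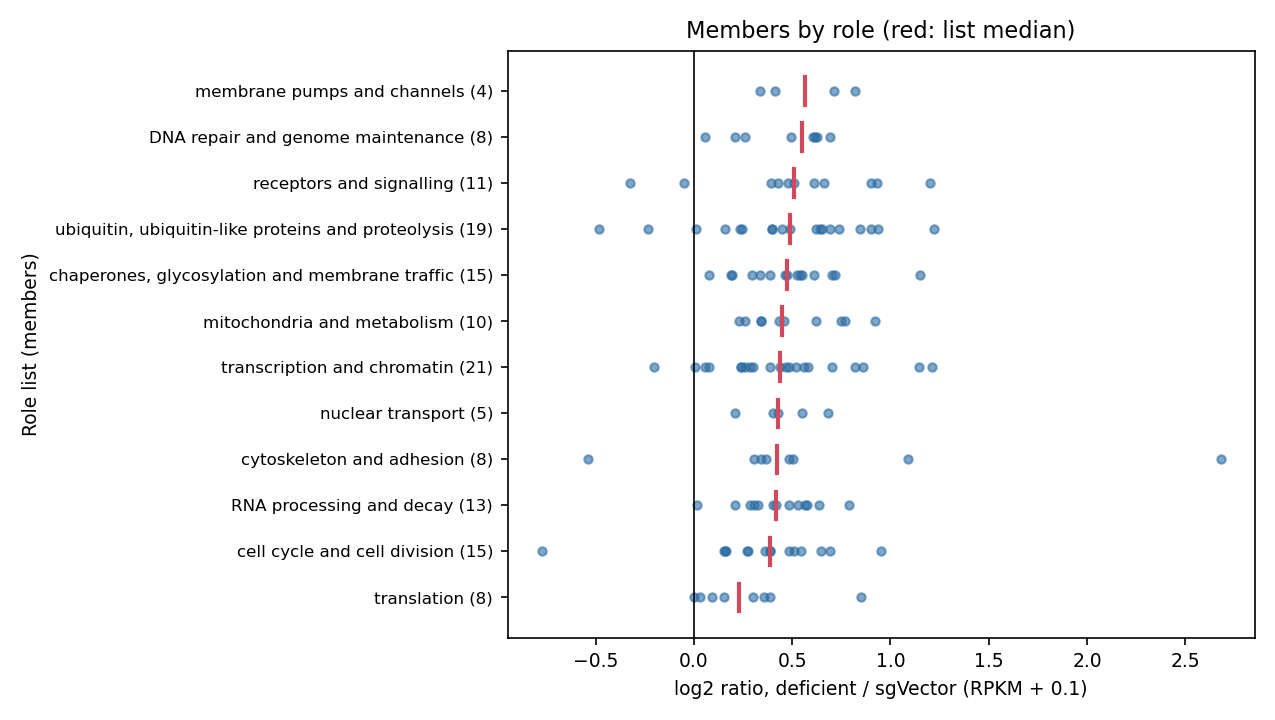
Log2 ratio of deficient over sgVector RPKM of each member (points) by role list, with the list median as a bar. All list medians are above 0, between 0.23 for translation and 0.56 for membrane pumps and channels.

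The counts per list are to be read beside the 95.1% of all members that were above 0. Of the DNA repair list 8 of 10 genes were past the floor, all 8 were above 0, and the median was 0.55. CUL4A, the scaffold of a ubiquitin ligase that works in nucleotide excision repair, had 1502 reads in deficient cells and 916 in sgVector cells (0.69). LIG4, the ligase of non-homologous end joining, had 284 and 182 reads (0.61). BRCA2, a protein of homologous recombination named here as a well-known gene outside the naming rule, had 373 and 232 reads (1.59-fold, 1.35 to 1.88). RFC3, a subunit of the clamp loader of DNA replication, had 633 reads in deficient cells and 602 in sgVector cells (0.06, and -0.05 after the correction for GC content and length).

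Of the cell division list 14 of 15 members were above 0, with a median of 0.39. RB1, the retinoblastoma protein that restrains entry into S phase, was the highest, with 9.27 RPKM from 980 reads in deficient cells and 4.74 RPKM from 496 reads in sgVector cells (1.95-fold, 1.75 to 2.18). The microtubule-nucleating proteins MZT1 and TUBGCP3 stood at 0.55 and 0.51. CDC16, of the anaphase-promoting complex, stood at 0.36, and SKA3, a kinetochore protein, at 0.16 with an interval that spanned no change. CCNA1 was the 1 member of this list below 0.

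Transcription and chromatin was the largest list, with 21 of 23 genes past the floor, 20 above 0 and a median of 0.44. FOXO1 and TSC22D1 led it. POLR1D, a subunit shared by RNA polymerases I and III, had 2372 reads in deficient cells and 1630 in sgVector cells (0.52). HMGB1, an abundant DNA-bending chromatin protein, had 2612 and 1902 reads (0.44). GTF2F2, of the initiation factor TFIIF, had 896 and 750 reads (0.24), and INTS6, of the Integrator complex, had 885 and 828 (0.08, and -0.18 after the correction for GC content and length).

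All 13 members of RNA processing and decay were above 0, with a median of 0.42, running down to EXOSC8, an exosome subunit with 518 reads in deficient cells and 506 in sgVector cells. EXOSC8, at 0.02, was just under 0 when mitochondrial genes were left out of the total and at -0.09 after the GC and length correction. PAN3, of the PAN2-PAN3 deadenylase, stood at 0.64 with 665 and 419 reads. In the translation list 8 of 8 were above 0, with a median of 0.23, and the interval of 4 lay wholly above no change, where 79.9% of all members and 30% of all protein-coding genes did. Its highest member, EEF1AKMT1, a methyltransferase of elongation factor 1A, rested on 60 reads in deficient cells and 32 in sgVector cells (1.85-fold, 1.19 to 2.94).

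Ubiquitin and proteolysis held 19 members, of which 17 were above 0, with a median of 0.49. LNX2, a RING ligase that binds Numb, stood at 0.85, and the 2 lower members were UCHL3 and USPL1. The chaperone, glycosylation and traffic list had 15 of 17 genes past the floor, 15 above 0 and a median of 0.48, led by TMTC4. Its lowest member, the heat shock protein HSPH1, had 1380 reads in deficient cells and 1293 in sgVector cells (0.08, and -0.12 after the GC and length correction). VPS36, of the ESCRT-II sorting complex, stood at 0.52, and the Golgi tethering subunits COG6 and COG3 stood at 0.48 and 0.19.

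All 10 members of mitochondria and metabolism were above 0, with a median of 0.45. VWA8, a mitochondrial ATPase, was the highest, with 663 reads in deficient cells and 341 in sgVector cells (0.92). PCCA, of propionyl-CoA carboxylase, had 275 and 157 reads (0.75), SUCLA2, of succinyl-CoA ligase, stood at 0.46 and MICU2, of the calcium uniporter, at 0.43. All 5 nuclear transport members were above 0, from KPNA3, an importin alpha, at 0.68 to PCID2, a TREX-2 subunit, at 0.21.

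The surface and signalling lists included some of the members farthest from the median. Of 8 cytoskeleton and adhesion members, 7 were above 0 and the median was 0.43, with LCP1 and RAP2A on top and SPATA13 below 0, while 11 of its 19 listed genes were below the floor. Of 11 receptor and signalling members, 9 were above 0 with a median of 0.51, from CAB39L at 1.20 to GAS6 at -0.32. IRS2, an insulin receptor substrate named after its values were seen, had 895 reads in deficient cells and 458 in sgVector cells (1.93-fold, 1.73 to 2.17). Of the pumps and channels, the copper transporter ATP7B stood at 0.82 with 230 and 122 reads, and the connexin gene GJB2 at 0.34 with an interval that spanned no change.

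Many members encode 1 subunit of a complex whose other subunits lie on other chromosomes. In 23 complexes with both kinds past the floor, the 26 chromosome 13 subunits had a median log2 ratio of 0.45, and 26 of 26 were above 0. That count was 25 without mitochondrial genes in the total and 23 after the GC and length correction. The 95 partners of these subunits had a median of -0.15, and 31 of the 95 were above 0, where 46.4% of all protein-coding genes were. The chromosome 13 side stood above the partner median in 23 of 23 complexes, and in 20 of 23 after the GC and length correction. The chromosome was picked for high ratios, and the lists were chosen with earlier results of these data known. Nothing is therefore read from either side of these counts.

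The widest gap was in the PAN2-PAN3 deadenylase, which trims poly(A) tails. PAN3 had 665 reads in deficient cells and 419 in sgVector cells, while its catalytic partner PAN2 had 1321 and 2432 reads, a log2 ratio of -0.89. PAN2 lies on chromosome 12, where the median over protein-coding genes was -0.29. The gap was also wide for CUL4A, at 0.69 against a partner median of -0.42, and for IFT88, an intraflagellar transport protein of cilia, at 0.95 against -0.14. PCCA stood at 0.75 and its partner PCCB at -0.15. POLR1D stood at 0.52 and its partner POLR1C at -0.24.

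Gaps to the partner median were narrower in other complexes. GTF2F2 stood at 0.24 and its partner GTF2F1 at 0.21, a difference that turned to -0.30 after the GC and length correction. INTS6 stood at 0.08 against a partner median of -0.07 and was exceeded by 4 of its 13 partners, and SKA3 stood at 0.16 against 0.00. RFC3, at 0.06, lay well above its partner median of -0.37 but below its partner RFC1, at 0.57. The nuclear pore channel gene NUP58 stood at 0.43 against a partner median of 0.26, and PDS5B, a cohesin regulator, at 0.49 against 0.24.

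**Figure D5:**
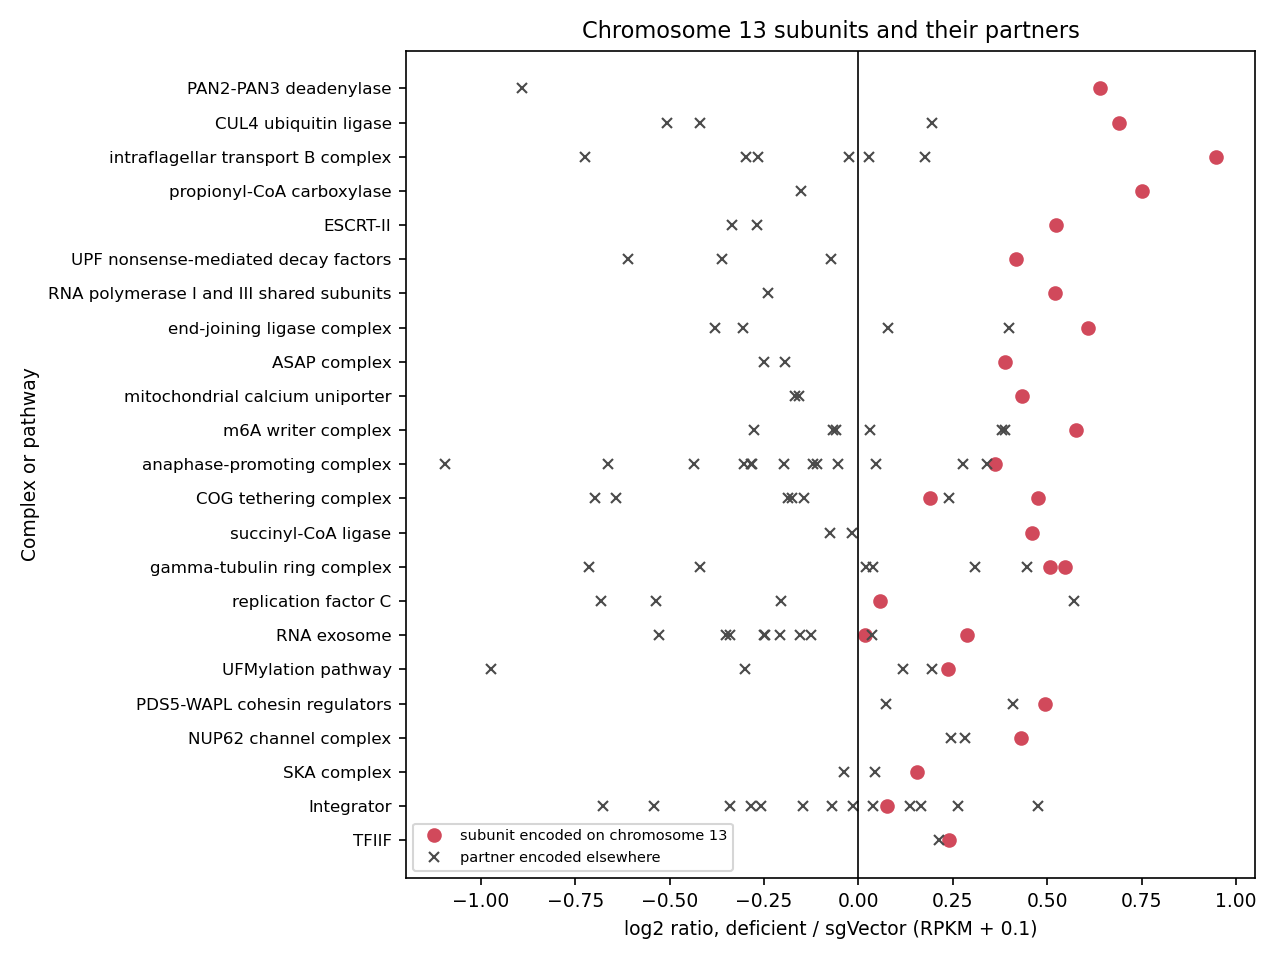
Log2 ratio of deficient over sgVector RPKM of chromosome 13 subunits (circles) and of their partners on other chromosomes (crosses) in 23 complexes or pathways. The chromosome 13 side lies above the partner median in each complex shown, by 0.03 in TFIIF and by 1.53 in PAN2-PAN3.

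Genes that start within 1000 bases of each other on opposite strands can share a promoter region, and 15 such pairs had both genes among the members. A start was taken here as the outermost annotated exon end of the gene, which can differ from its RefSeq start. Both were above 0 in 13 pairs, to be read beside the 95.1% of all members that were above 0. The median difference within a pair was 0.32 on the log2 scale, against 0.30 over the 163 steps between consecutive members. DIS3, the exosome ribonuclease, and PIBF1, a centrosomal protein, were nearly level at 0.29 and 0.27. LIG4 and the hydrolase gene ABHD13 stood at 0.61 and 0.56.

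Other pairs diverged. HMGB1 stood at 0.44 and USPL1 at -0.23, the widest difference of the 15. Their outermost exon ends lie 96 bases apart, but the RefSeq start of HMGB1 lies well inside its annotated span, away from USPL1. COMMD6, a small NF-kappaB regulator, stood at 0.16 and UCHL3 at -0.48. PCID2 and CUL4A stood at 0.21 and 0.69, and CAB39L and the SET-domain gene SETDB2 at 1.20 and 0.70. LNX2 and POLR1D stood at 0.85 and 0.52.

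The windows of HMGB1 and POLR1D are shown because these genes belong to the pairs with the most reads. The HMGB1 window lies at its RefSeq start and not beside USPL1, for which no RefSeq window was found. HMGB1 covers chr13:30465887-30466186 on the minus strand and is 58.7% GC. POLR1D covers chr13:27620493-27620792 on the plus strand, and 287 of its 300 bases also lie in the window of LNX2 on the other strand. Both are RefSeq sequences on GRCh38.p14. Capitals mark CCAAT and GGGCGG or their reverse complements.
HMGB1: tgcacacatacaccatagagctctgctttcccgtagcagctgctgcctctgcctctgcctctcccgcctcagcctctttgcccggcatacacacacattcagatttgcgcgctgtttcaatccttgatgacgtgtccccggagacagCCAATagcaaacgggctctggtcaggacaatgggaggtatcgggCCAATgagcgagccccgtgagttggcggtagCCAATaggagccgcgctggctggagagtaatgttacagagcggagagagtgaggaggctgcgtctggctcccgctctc
POLR1D: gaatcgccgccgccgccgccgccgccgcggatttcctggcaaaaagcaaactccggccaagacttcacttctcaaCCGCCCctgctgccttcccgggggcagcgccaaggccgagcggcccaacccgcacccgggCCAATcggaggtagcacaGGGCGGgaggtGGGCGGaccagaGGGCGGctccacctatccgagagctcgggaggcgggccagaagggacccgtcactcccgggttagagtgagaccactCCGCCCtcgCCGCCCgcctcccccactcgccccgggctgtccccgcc

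The letters of the promoters were compared with those of other genes. RefSeq windows were found for 143 of the 164 members, with a median GC content of 66.0%, against 65.7% over 8703 expressed protein-coding genes. Motifs were searched on both strands. CCAAT was in 33.6% of member windows, in 37.1% of expressed genes and in 34.6% of all 35116 windows. GGGCGG, the core of the GC box, was in 62.9%, 71.9% and 45.0% of the same sets. TATAAA was in 6.99%, 5.31% and 11.5%, and CCGGAAG, the ETS core, in 18.2%, 20.5% and 10.3%. CACGTG, the E-box, was in 7.69%, 10.4% and 7.26%. Members with CCAAT had a median log2 ratio of 0.47 and members without it 0.47, and with GGGCGG the medians were 0.48 and 0.44. A match is a description of letters and says nothing of a bound factor.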

How the data were processed

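RNA from 1 PD-L1L2-SE deficient and 1 sgVector library of SUM-159 cells was sequenced. The authors deposited RPKM values per gene, and the file headers give hg19 exon positions and length beside them. The submitters' processing notes name Subread, featureCounts 1.6.4, GRCh37 and hg19. Not given in the sources used here are the aligner, the annotation release and strand use, which leaves overlapping and antisense genes uncertain: 69 members share exon bases with another gene, 19 of them over 10%. Whole reads were recovered from RPKM and length for 100% of values (tolerance 1e-06 reads). These reads were used for the counting intervals, the read shares and the sets chosen by a minimum of reads.

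Gene types came from GENCODE 29, matched for 56858 of 60880 rows, and 41 rows of the Y pseudoautosomal copies were left out. Log2 ratios used a pseudocount of 0.1 RPKM and a floor of 1 RPKM. Read-share ratios have no pseudocount, so they differ slightly from the log2 ratios. The software was matplotlib 3.10.9, statsmodels 0.14.6, scipy 1.17.1, pandas 2.3.3 and numpy 2.4.6 under Python 3.11.15, and the code was tested on simulated data. Genes named were the 10 highest and 10 lowest members, the 5 with the most reads, the ends of each role list, complex subunits, head-to-head pairs, and the members at the ends of the chromosome and at the floor. The members and lists were chosen with earlier results of these data known. Alternatives were other pseudocounts, floors, scalings, a GC and length correction, window sizes and the removal of overlapping members. With 1 library per group, the count model was not run. A few genes that these rules would name are not reported here.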

Additional observations from a re-analysis of the deposited data

How the results depend on the processing

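No paired analysis was possible because there was 1 library per group. The member median, 0.46, was 0.38 with a pseudocount of 1, 0.50 centred on the median of all genes, 0.53 with TMM scaling, 0.49 with upper-quartile scaling, 0.50 on TPM and 0.44 without mitochondrial genes in the total. It was 0.34 after the GC and length correction, 0.42 both without a floor and when the floor was 5 RPKM, and 0.44 without overlapping members. For members above 0 and for the 2-fold counts, brackets give the share of all protein-coding genes under the same setting. Overlapping genes were removed among the members only, so no such share is given for that setting. Members above 0 were 156 of 164 (46.4%). They numbered 75 of 77 with a floor of 5 RPKM (44.6%) and 202 of 238 with no floor (44.9%). They were 152 without mitochondrial genes (43.8%), 146 after the GC and length correction (45.8%) and 92 of 95 without overlaps. The count at least 2-fold higher, 8 (2.1%), was 3 with a pseudocount of 1 (1.23%) and 14 with TMM (2.54%). It was 2 of 77 above 5 RPKM (1.31%), 15 of 238 with no floor (3.07%) and 3 of 95 without overlaps. At 1.5-fold it was 51 (6.92%), and it was 4 where the whole interval had to pass 2-fold (1.31%). The count at least 2-fold lower, 0 (2.07%), was 1 of 178 above 0.5 RPKM (2.77%), 3 of 238 with no floor (3.95%) and 1 at 1.5-fold (8.67%). Intervals wholly above no change, 79.9% of members and 30% of all protein-coding genes, were 65 of 77 (84.4%, against 31.7%) with a floor of 5 RPKM and 76 of 95 (80%) without overlaps. They were 116 (70.7%, against 27.7%) after the GC and length correction and 148 of 238 (62.2%, against 22.4%) with no floor. The lowest window median, 0.36, was 0.42 in windows of 20 Mb. Floors and the removal of overlaps change how many genes are counted; for the other settings the cause was not tested. Over 80 named genes, 12 of 640 values changed sign, 7 of them after the GC and length correction. Outside the gene's own counting interval lay 36 values, 20 of them after that correction. The 2-fold call changed for 15 values, among them RAP2A, at 0.90 after that correction. No scaling moved the median of all genes by more than 0.08. Depth limits members with few reads: the fewest over both libraries was 91.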

Other observations

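Genes of chromosome 13 outside the members had values of their own. Of its protein-coding genes below the floor, 40 had at least 10 reads over both libraries, with a median log2 ratio of 0.53, and 31 of 40 were above 0, where 42.8% of 2776 such genes on other chromosomes were. FAM124A had 188 reads in deficient cells and 27 in sgVector cells (6.89-fold, 4.59 to 10.7). DACH1, a homologue of the fly dachshund transcription factor, had 79 and 21 reads (3.72-fold, 2.28 to 6.34). These genes were picked after their values were seen.

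The non-coding and untyped rows of chromosome 13 had lower ratios than its protein-coding genes. Of 51 past the floor, 26 were above 0 (51.0%), where 37.6% of 2925 such rows on other chromosomes were. Their median was 0.01, and the median of the rows elsewhere was -0.17. Among those with at least 50 reads, 31 rows of chromosome 13 had a median of 0.03 and 1720 rows elsewhere had -0.14. The 29 processed pseudogenes among the 51 had a median of -0.01. Whether their reads came from parent genes elsewhere was not tested. FTH1P7, a ferritin heavy chain pseudogene whose reads may be shared with its near-identical parent gene, had 12214 reads in deficient cells and 4599 in sgVector cells, and the long non-coding RNA LINC03061 had 10916 and 17997 reads.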
